A study of Mus musculus with 10 samples.

Results

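A set of 10 genes of NAD metabolism was followed in the RNA of primary mouse adipocytes that carried or lacked a Cre-driven deletion of Fam20c, the gene of a kinase that phosphorylates proteins on the secretory route. They were taken by name from the deposited count table: Nampt, Nmnat1, Nmnat3, Naprt, Nadsyn1, Nmrk1, Nnmt, Sirt1, Sirt3 and Cd38, 10 of the 56748 genes listed. All 10 passed the filter on low counts and were among the 14270 genes tested.

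NAD carries electrons in metabolism and is also consumed by enzymes that split off nicotinamide, so cells must keep remaking it. In most mammalian cells, adipocytes included, the main route recycles nicotinamide: NAMPT joins it to phosphoribosyl pyrophosphate, giving nicotinamide mononucleotide, and the NMNAT enzymes add the adenylate part. Side routes start from nicotinic acid (NAPRT, then NADSYN1) or from nicotinamide riboside (NMRK1). NNMT methylates nicotinamide and so removes it from recycling, sirtuins use NAD to deacylate proteins, and CD38 hydrolyzes it. NAMPT is also released by fat cells and has been studied as an adipokine under the name visfatin.

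The cultures were stromal vascular cells of inguinal fat from male mice, 6 to 8 weeks old, grown to confluence and differentiated for 6 to 8 days with isobutylmethylxanthine, dexamethasone, insulin and rosiglitazone. Control cultures (5 libraries) carried the floxed Fam20c allele (Fam20c-flox), and Ad-Fam20c–KO cultures (5 libraries, here KO) carried the same allele with Adipoq-Cre, so the floxed allele was common to both groups. Adipoq-Cre is active in cells that switch on the adiponectin gene, so cells of the culture that do not become adipocytes keep Fam20c. Nothing in the labels ties a library to its own animal, so p-values measure the spread between these libraries, which may be technical.

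Total counts were 18949106 to 26237825 in control and 19883101 to 23291792 in KO libraries, and the biological coefficient of variation was 9.35%. Fam20c averaged 10.2 ± 1.29 in control against 7.30 ± 0.449 in KO libraries, in CPM (TMM-scaled counts relative to library size, ± SD, n = 5), with no overlap between the groups, and its counts cover the whole gene, floxed exons or not. On the first principal component, which held 23.5% of the variance, control library 4 (21.7) and KO library 1 (24.2) lay apart from the other 8, which lay between -14.8 and 8.59. Summed levels of 12 adipocyte markers were 32830 to 33560 CPM in control and 34330 to 36380 CPM in KO libraries, with 0 of 12 past the adjusted limit. Most of this sum was Fabp4, which averaged 20810 CPM in control and 22550 CPM in KO libraries. Of the 12 estimates 10 were above 0 and 2 below, with a median log2 fold change of 0.063. Sums of 16 endothelial markers were 201 to 244 CPM in control and 92.5 to 133 CPM in KO libraries. All 16 estimates were below 0. Past the adjusted limit 13 of 16 were lower in KO, beside 2.17% of all genes tested in either direction. Progenitor markers (3 of 10 lower past this limit) summed to 2852 to 3351 CPM in control and 2472 to 2898 CPM in KO libraries. Mural markers (0 of 8 tested of 9) summed to 183 to 241 CPM and 147 to 199 CPM. The sums of macrophage markers (1 of 12 lower past this limit) were 1503 to 2297 CPM and 1314 to 2176 CPM. Estimates were below 0 for 9 of 10 progenitor markers (median log2 fold change -0.227) and 8 of 12 macrophage markers (-0.042). All 8 tested mural markers had estimates below 0 (median log2 fold change -0.381). An unadjusted p under 0.05 in edgeR was found for 5 of them (62.5%), beside 11.9% of all genes. In bulk RNA, fewer cells of a type and less RNA per cell cannot be told apart, and the part of these marker differences in the results below was not tested.

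None of the 10 NAD genes passed an adjusted p of 0.05 in KO against control cultures (edgeR quasi-likelihood test, Benjamini-Hochberg over all genes), beside 2.17% of all genes tested. The estimate was above 0 for 6 genes and below 0 for 4, with a median log2 fold change of 0.04 beside -0.00085 over all genes, and every gene's control and KO libraries overlapped, where 3.97% of all genes had groups that did not. Only Nmnat3 had an unadjusted p under 0.05 in edgeR, against 11.9% of all genes. DESeq2 also called 0 of the 10, beside 484 of the 14270 genes tested. It had 3 of the 10 at an unadjusted p under 0.05, beside 1612 of the 14270 genes. Nampt passed the adjusted limit when control library 4 was left out. The 95% intervals of the 10 fold changes lay between 0.73-fold and 1.27-fold.

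**Figure D1:**
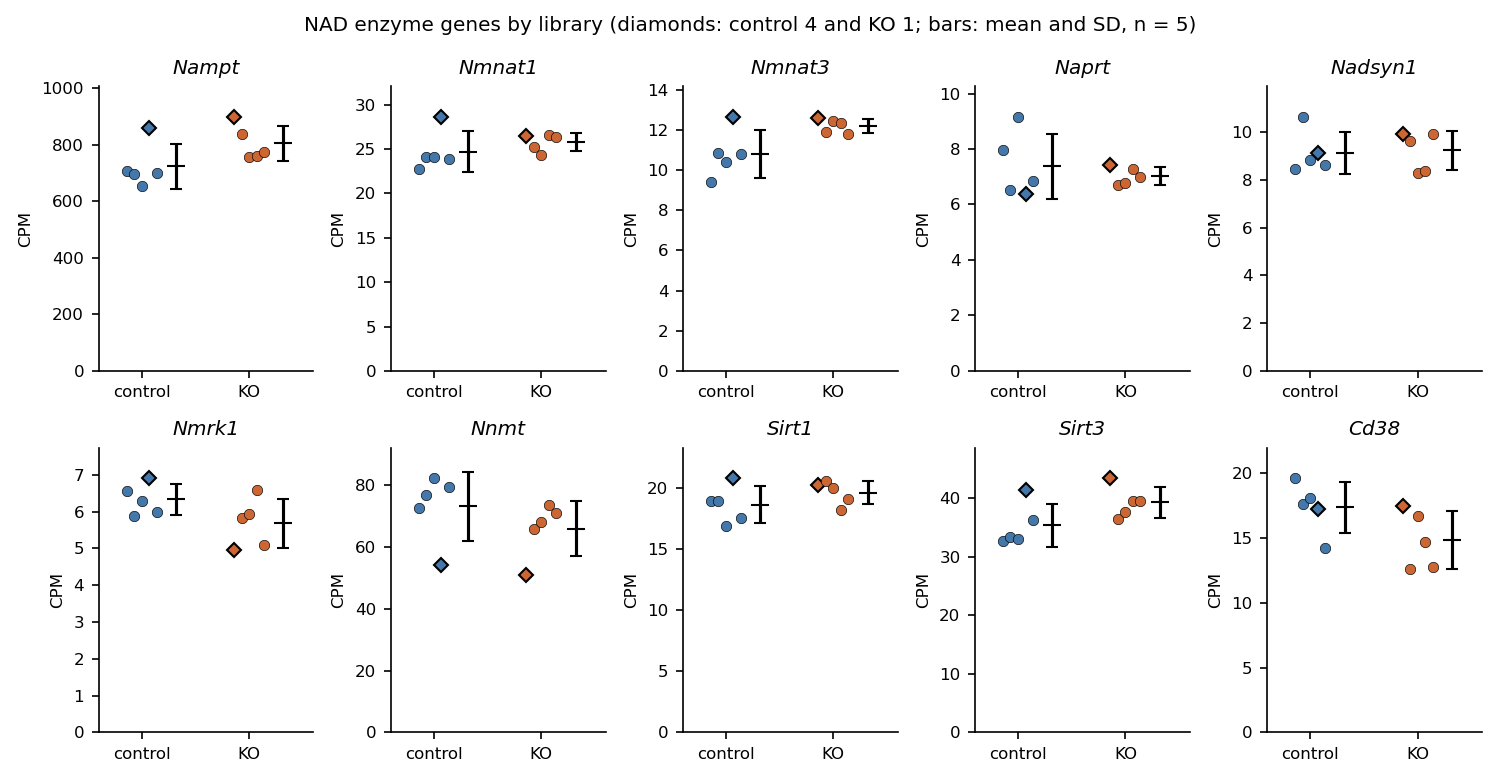
Each panel plots 1 gene, with CPM on the y axis from 0, control libraries in blue and KO libraries in orange, 1 point a library, and the mean with its SD (n = 5) beside them. Control library 4 and KO library 1, the diamonds, hold the highest Nampt value and the lowest Nnmt value of their groups.

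Per kilobase of exon, the scale on which genes can be set side by side, Nampt stood far above the rest. In control libraries it had 143 CPM per kb, more than 97.7% of the 14096 tested genes with a length. Nnmt followed at 46.3 CPM per kb, above 92.6% of these tested genes. These levels made up 64.7% and 20.9% of the sum over the 10 genes. Then came Nmnat1 (8.13 CPM per kb), Sirt3 (5.91), Cd38 (4.46), Sirt1 (3.49), Naprt (3.15), Nadsyn1 (2.76), Nmnat3 (2.16) and Nmrk1 (1.72 CPM per kb). From Cd38 down to Nadsyn1, each gene's range over the 5 control libraries overlapped that of the next, so those neighbours are not separated. The other neighbours in the order did not overlap, but some gaps were very small. The lowest Nadsyn1 value was 2.55 against a highest Nmnat3 value of 2.53, and the lowest Nmnat3 value 1.88 against a highest Nmrk1 value of 1.87. These ranges show the spread between libraries and not the error from the exon length used for each gene. The nicotinic acid and riboside genes Naprt, Nadsyn1 and Nmrk1 were thus all at 3.15 CPM per kb or less, but so was Nmnat3 of the recycling route. Of the tested genes with a length, 31.4% had less than Nmrk1.

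Nampt (ENSMUSG00000020572.9) encodes the enzyme of the rate-limiting step of nicotinamide recycling. It lies on the plus strand of chromosome 12 (GRCm38, 32819545 to 32853349, 5054 exonic bases). Its counts, 13460 to 19069 a library, leave an average counting error of 0.775%. Its CPM were 705.9, 695.8, 652.2, 859.5 and 700.4 in controls 1 to 5, against 899.4, 837.3, 755.8, 760.6 and 773.5 in KO 1 to 5. Control library 4 stood well above the other controls and inside the KO range, while all 5 KO libraries lay above the other 4 controls. Nampt thus averaged 723 ± 79.3 CPM without Cre and 805 ± 61.9 CPM with it (SD, n = 5). The log2 fold change was 0.16 (SE 0.0738, 95% interval -0.0038 to 0.32, adjusted p = 0.439, edgeR quasi-likelihood), and a 2-sided exact permutation test over all assignments of the libraries gave p = 0.111, where the smallest possible is 0.00794.

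Without control library 4, the Nampt log2 fold change was 0.23 (SE 0.0565) with an adjusted p of 0.0495 from the same edgeR test, a setting in which 3.07% of all genes tested passed. Without both control library 4 and KO library 1 it was 0.18 (SE 0.0444) with an adjusted p of 0.0428, where 3.47% of genes passed. Over all 19 alternatives the estimate stayed between 0.12 and 0.23 and the adjusted p between 0.0428 and 0.668, passing in these 2 settings only. The call therefore turned on a control library that lay apart over the whole transcriptome, which the labels give no reason to set aside.

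The recycling genes Nampt and Nmnat3 had the members' largest upward estimates, and their start-site windows are shown because no annotated exon covers them, although both lie inside the annotated genes, which begin further upstream. Each is the 250 bases before the RefSeq start, on the gene's strand, 5′ to 3′, with the GC box GGGCGG or its reverse complement CCGCCC in capitals.
Nampt, chr12:32820085-32820334, plus strand, GRCm38.p6: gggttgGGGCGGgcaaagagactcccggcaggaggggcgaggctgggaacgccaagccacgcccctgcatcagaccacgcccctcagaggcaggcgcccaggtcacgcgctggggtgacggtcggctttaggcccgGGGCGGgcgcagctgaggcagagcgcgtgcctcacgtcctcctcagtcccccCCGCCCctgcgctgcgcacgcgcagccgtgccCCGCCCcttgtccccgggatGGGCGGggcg
Nmnat3, chr9:98296320-98296569, plus strand, GRCm38.p6: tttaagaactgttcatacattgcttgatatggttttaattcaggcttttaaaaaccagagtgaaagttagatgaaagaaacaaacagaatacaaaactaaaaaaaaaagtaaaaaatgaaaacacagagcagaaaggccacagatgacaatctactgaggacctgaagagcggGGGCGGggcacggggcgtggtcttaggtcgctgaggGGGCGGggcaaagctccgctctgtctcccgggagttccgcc
The Nampt window held 5 GC boxes, 27 CpG and 75.6% G and C, with more CpG than 91.4% of the 32851 windows of that length in the RefSeq table. The Nmnat3 window held 2 GC boxes, 9 CpG and 45.6% G and C. A GC box on either strand occurred in 32.7% of all windows. Neither window held the E-box CACGTG (6.02% of windows), the CCAAT box CCAAT (33.8%) or the TATA letters TATAAA (12.4%), each searched on both strands. Windows of 8 of the 10 genes were in the table. That of Sirt1 held 2 E-boxes, 6 GC boxes and 39 CpG, and that of Cd38 held 1 CpG and none of the 4 motifs. These are matches of letters in 1 window and say nothing of binding.

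NMNAT enzymes finish NAD synthesis, NMNAT1 in the nucleus and NMNAT3 in mitochondria. Nmnat3 (chromosome 9, plus strand, 98287435 to 98420438) measured 9.39, 10.8, 10.4, 12.7 and 10.8 CPM in controls 1 to 5, against 12.6, 11.9, 12.4, 12.4 and 11.8 in KO 1 to 5. The highest value of all was that of control library 4, and the 5 KO libraries lay above the other 4 controls. The means were 10.8 ± 1.19 and 12.2 ± 0.349 CPM (SD, n = 5), and the log2 fold change was 0.17 (SE 0.0767, 95% interval 0.0087 to 0.34). Its unadjusted p was 0.0407 and its adjusted p 0.384 by the edgeR test, and the exact permutation p was 0.0476. Over the alternatives the adjusted p of Nmnat3 ran from 0.0919 to 0.622.

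Nmnat1 (chromosome 4, minus strand, 149467572 to 149485202) measured 22.7, 24.2, 24.1, 28.7 and 23.8 CPM in controls 1 to 5, against 26.4, 25.2, 24.4, 26.6 and 26.3 in KO 1 to 5. Control library 4 was again above every other library, and the KO libraries were all above the remaining controls. With it included the log2 fold change was 0.06 (SE 0.0638, adjusted p = 0.802, edgeR quasi-likelihood). The arrangement in which all 5 KO libraries exceeded the other 4 controls was looked at after the values were seen. It held for Nampt, Nmnat1, Nmnat3 and Sirt3, 4 of the 10 genes, beside 3.6% of all genes tested in that direction. Control library 4 was the highest control for each of these genes, so setting it aside favours this arrangement. The 4 genes also ran together over the libraries, so they are not separate cases, and the count is a description only.

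NAPRT and NADSYN1 form the nicotinic acid branch, and NMRK1 phosphorylates nicotinamide riboside. Naprt (chromosome 15, minus strand, 75890956 to 75894481) had 6.38 to 9.17 CPM in control and 6.72 to 7.44 CPM in KO libraries, with every KO value inside the control range. Its log2 fold change was -0.07 (95% interval -0.29 to 0.16), and 277 of its exonic bases are shared with Eef1d on the same strand. Nadsyn1 (chromosome 7, minus strand, 143795584 to 143822849) measured 8.44, 10.7, 8.84, 9.14 and 8.62 CPM in controls 1 to 5, against 9.92, 9.62, 8.29, 8.38 and 9.92 in KO 1 to 5. Its interval, -0.18 to 0.20 around 0.01, was centred close to no difference. Nmrk1 (chromosome 19, plus strand, 18631950 to 18652428), with as few as 100 counts in a library and a counting error of 8.72%, had 6.56, 5.89, 6.30, 6.91 and 6.00 CPM in control and 4.96, 5.84, 5.94, 6.60 and 5.09 CPM in KO libraries. Of the KO libraries, 1, 2 and 5 lay below all controls and the others inside their range. The log2 fold change of Nmrk1 was -0.15 (SE 0.0957, adjusted p = 0.61, edgeR quasi-likelihood).

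Nnmt (chromosome 9, minus strand, 48591877 to 48605153), the gene of the enzyme that methylates nicotinamide, is strongly expressed in fat tissue. Controls 1 to 5 measured 72.6, 76.8, 82.2, 54.2 and 79.3 CPM, against 50.9, 65.6, 67.9, 73.6 and 71.1 in KO 1 to 5. Control library 4 and KO library 1 were the lowest of their groups, the opposite of their place for Nampt. The means were 73.0 ± 11.1 and 65.8 ± 8.85 CPM (SD, n = 5), with a log2 fold change of -0.15 (SE 0.114, 95% interval -0.40 to 0.10, adjusted p = 0.699, edgeR quasi-likelihood).

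Libraries high in Nampt were low in Nnmt in both genotypes, though not in strict order, since KO library 3 had the least Nampt of its group and not the most Nnmt. For each Nnmt count there were 9.72, 9.06, 7.93, 15.9 and 8.83 Nampt counts in control libraries 1 to 5 and 17.7, 12.8, 11.1, 10.3 and 10.9 in KO libraries 1 to 5. The log2 CPM of the pair correlated at Pearson's r = -0.931 and Spearman's rho = -0.927 over the 10 libraries. With group means subtracted r was -0.951, and over the 8 libraries left without control 4 and KO 1 r was -0.903 and rho -0.857. This pairing was chosen after the values were seen and is given as a description, since all genes of a library share its RNA and its scaling.

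**Figure D2:**
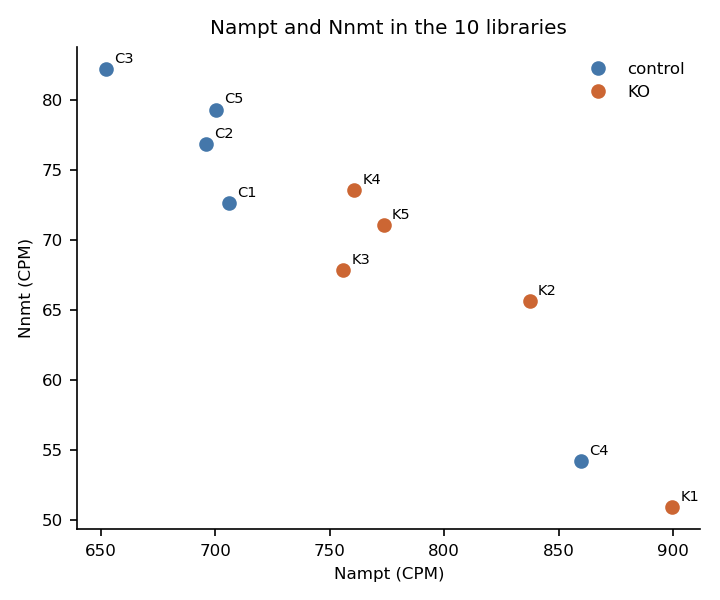
Each point is 1 library, with Nampt CPM on the x axis and Nnmt CPM on the y axis (neither axis starts at 0), control libraries C1 to C5 in blue and KO libraries K1 to K5 in orange. Points run from C3 at upper left (652.2 and 82.2 CPM) to K1 at lower right (899.4 and 50.9 CPM), and C4 lies next to K1.

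Over the 10 libraries, among 9302 genes of sufficient level, the log2 CPM most like that of Nampt was that of Bnip3 (r = 0.987), a mitophagy receptor induced in low oxygen. It was followed by Pde4d (0.984), a cyclic AMP phosphodiesterase, Acer2 (0.978), an alkaline ceramidase, Pgm1 (0.974), a glucose phosphate mutase, and Snrk (0.973), a kinase of the AMPK family. With group means subtracted the closest were Gopc (0.992), Tmem131l (0.988), Mtus1 (0.986), Kdm3a (0.984), a histone demethylase induced in low oxygen, and Bnip3 (0.983). None of these 9 genes passed the adjusted limit in KO against control. Without control 4 and KO 1, r with Nampt was 0.977 for Bnip3 and 0.982 for Gopc. Among the members, Sirt3 (0.851), Sirt1 (0.84), Nmnat3 (0.767) and Nmnat1 (0.746) ran with Nampt, and these values were 0.682, 0.802, 0.685 and 0.60 over the 8 libraries. Nadsyn1 (0.283) and Cd38 (-0.254) had weaker correlations with Nampt over the 10 libraries, and Naprt and Nmrk1 were not ranked. How many of the ranked genes reach such values is not given here.

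SIRT1 is a mostly nuclear deacetylase and SIRT3 the main mitochondrial one. Sirt3 (chromosome 7, minus strand, 140863666 to 140882309) measured 32.6, 33.4, 32.9, 41.4 and 36.2 CPM in controls 1 to 5, against 43.4, 36.4, 37.7, 39.5 and 39.5 in KO 1 to 5. Only KO library 1 exceeded control library 4, whereas all KO libraries exceeded the other controls. The log2 fold change was 0.15 (SE 0.0717, 95% interval -0.0016 to 0.31, adjusted p = 0.429, edgeR quasi-likelihood, exact permutation p = 0.0873). Sirt3 shares 342 exonic bases with Psmd13 and 418 with Ric8a, both on the opposite strand and with log2 fold changes of -0.02 and -0.01, and the strand setting of the counting is not given in the sources used here. Sirt1 (chromosome 10, minus strand, 63319005 to 63381704) had 16.9 to 20.8 CPM in control and 18.2 to 20.6 CPM in KO libraries, wholly within the control range, with a log2 fold change of 0.07 (95% interval -0.066 to 0.22).

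Cd38 (chromosome 5, plus strand, 43868553 to 43912375), an ecto-enzyme that cleaves NAD and is common on immune cells, had the most negative estimate. It measured 19.6, 17.6, 18.1, 17.3 and 14.3 CPM in controls 1 to 5, against 17.5, 12.6, 16.7, 14.7 and 12.8 in KO 1 to 5. KO libraries 2 and 5 lay below all controls and the other 3 inside their range. The log2 fold change was -0.22 (SE 0.107, 95% interval -0.46 to 0.0074, adjusted p = 0.442, edgeR quasi-likelihood). Summed macrophage markers in the same order were 1972, 1594, 2297, 1569 and 1503 CPM in control and 2145, 1406, 2176, 1993 and 1314 CPM in KO libraries. The lowest sum in control, that of library 5, went with the lowest control Cd38 value, and KO libraries 2 and 5 were lowest in both measures. The highest control sum was that of library 3, whereas control library 1 had the most Cd38. The median sum was 1594 CPM in control and 1993 CPM in KO libraries, with overlapping ranges (1503 to 2297 CPM and 1314 to 2176 CPM). Of the 12 marker estimates 4 were above 0 and 8 below, with a median log2 fold change of -0.042. Only Cd163 passed the adjusted limit, with a log2 fold change of -0.55 (adjusted p = 0.00773, edgeR quasi-likelihood). Lyz2 alone gave 890.1 to 1474 CPM of the control sums and 808.6 to 1398 CPM of the KO sums. The part of the macrophage markers, of which none was at 0, in the Cd38 values was not tested.

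**Figure D3:**
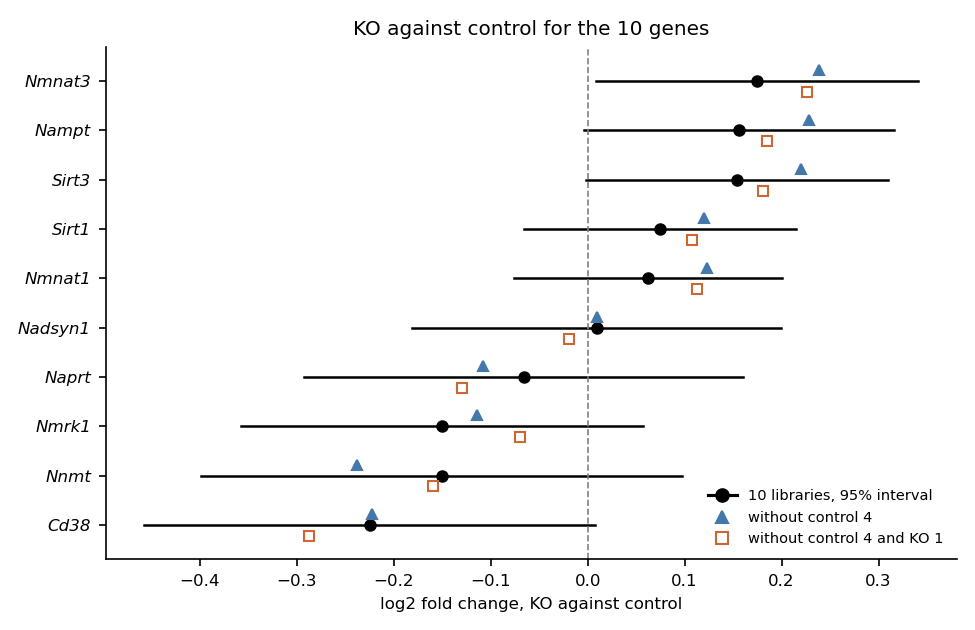
The x axis gives the log2 fold change of KO against control for each of the 10 genes, black points and lines being the estimate and 95% interval from all 10 libraries, blue triangles the estimate without control library 4 and open orange squares that without control 4 and KO 1. Without control 4 the triangles of Nampt, Nmnat1, Nmnat3, Sirt1 and Sirt3 move up, Nampt from 0.16 to 0.23 and Nmnat1 from 0.06 to 0.12. Nmrk1 also moves up, from -0.15 to -0.11. Nnmt moves down from -0.15 to -0.24, and Naprt from -0.07 to -0.11.

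Of 63 other genes of NAD metabolism listed by role, 50 could be tested, and 1 was higher and 1 lower past the adjusted limit, both in the group that handles the methyl donor or oxidizes nicotinamide products, beside 2.17% of all genes tested in either direction. An unadjusted p under 0.05 was found for 9 genes, 6 higher and 3 lower, or 18.0% beside 11.9% of all genes. The median log2 fold change of the 50 was 0.03. Groups did not overlap for 3 of the 50, Ahcy, Aox3 and Parg, beside 3.97% of all genes tested.

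AHCY hydrolyzes S-adenosylhomocysteine, the by-product of methylation reactions including that of NNMT. Ahcy measured 50.2, 57.5, 46.7, 51.7 and 50.8 CPM in controls 1 to 5, against 63.7, 60.9, 65.5, 59.7 and 63.1 in KO 1 to 5. Every KO library lay above every control, and Ahcy rose by a log2 fold change of 0.28 (SE 0.0538, adjusted p = 0.0138, edgeR quasi-likelihood). Aox3, an aldehyde oxidase of the kind that oxidizes methylnicotinamide, had 4.62, 4.09, 4.52, 3.43 and 3.64 CPM in control and 2.63, 2.85, 2.79, 2.89 and 3.05 CPM in KO libraries. Every KO library lay below every control, and the log2 fold change was -0.51 (SE 0.112, adjusted p = 0.0324 from the same edgeR test). Ahcy also passed with each library left out, with an adjusted p of 0.00399 to 0.045. The adjusted p of Aox3 was then 0.016 to 0.102, passing only without control 4 or control 5, and it was 0.0535 without the filter on low counts. Neither Ahcy nor Aox3 passed when libraries of the same number were treated as a block. The paralog Aox1, at 53.5 ± 8.50 CPM in control, had a log2 fold change of 0.0021, and Mat2a and Mat2b, whose products make S-adenosylmethionine and which had the highest levels per kb of this group (62.0 and 21.1 CPM per kb in control), had 0.08 and 0.05. Gnmt, a glycine methyltransferase with few counts, had 0.58 (SE 0.241) and an adjusted p of 0.352 in the edgeR test.

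**Figure D4:**
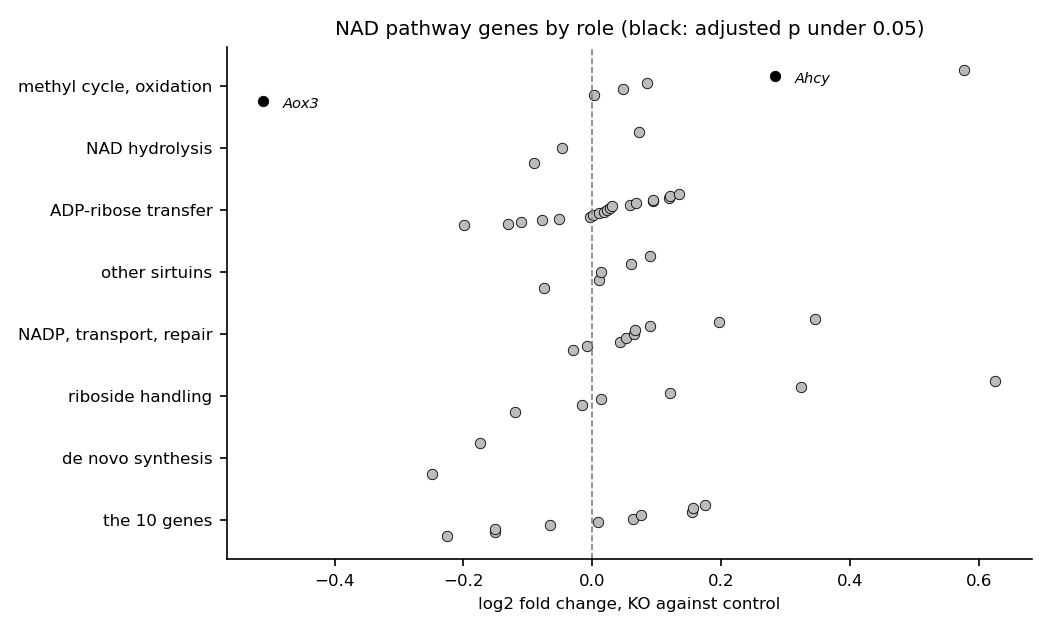
Each point is 1 tested gene of NAD metabolism, placed by its log2 fold change of KO against control on the x axis and by its role on the y axis, with vertical offsets only to separate points. The 2 black points, Aox3 at -0.51 and Ahcy at 0.28, passed an adjusted p of 0.05, and the row of the 10 genes runs from -0.22 to 0.17.

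In the other 6 roles 0 of 44 tested genes passed the adjusted limit by edgeR or DESeq2, and 6 (13.6%) had an unadjusted p under 0.05 in edgeR, beside 11.9% of all genes tested. The de novo route from tryptophan was near silent: only Qprt and Afmid of 9 genes could be tested, and Tdo2, Ido1, Ido2, Kmo, Kynu, Haao and Acmsd had at most 10 counts in any library. Qprt, whose product turns quinolinate into nicotinic acid mononucleotide, had 3.50 ± 0.222 CPM in control against 2.94 ± 0.336 in KO libraries (log2 fold change -0.25, SE 0.109), and Afmid had -0.17 with 8 to 31 counts. Among the 9 genes for ribosides and related transport, 6 were tested. Nt5e, the CD73 ecto-nucleotidase, had 16.0, 12.9, 13.8, 29.9 and 16.0 CPM in control libraries and 43.8, 25.7, 21.6, 22.6 and 22.6 CPM in KO libraries. As for Nampt, control library 4 and KO library 1 were the highest of their groups. The log2 fold change of Nt5e was 0.63 (SE 0.246, adjusted p = 0.311, edgeR quasi-likelihood). Without control library 4 it was 0.90 with an adjusted p of 0.0248 from the same edgeR test, where 3.07% of all genes tested passed. Without both control library 4 and KO library 1 it was 0.66 with an adjusted p of 0.00101, where 3.47% of genes passed.

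Nmnat2, the cytosolic paralog of Nmnat1 and Nmnat3, was low at 2.98 ± 0.201 CPM in control against 3.72 ± 0.527 in KO libraries, with 4 of 5 KO libraries above all controls, a log2 fold change of 0.32 (SE 0.118) and an adjusted p of 0.258 by the edgeR test. Nmrk2 had at most 2 counts in a library. Per kb, the most abundant of this role were Pnp, the purine nucleoside phosphorylase (9.06 CPM per kb, log2 fold change -0.02), and Hcar2, the nicotinic acid receptor of adipocytes (7.61 CPM per kb, 0.12).

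Of genes for NADP, transport and repair, 9 of 10 were tested and 7 had estimates above 0. Nadk, the cytosolic NAD kinase, reached 77.0 CPM per kb in control, with a log2 fold change of 0.05, and the repair epimerase gene Naxe 54.6 CPM per kb, with 0.07. The mitochondrial kinase gene Nadk2 had 25.9 ± 2.86 CPM in control against 29.6 ± 2.42 in KO libraries (log2 fold change 0.20, SE 0.0794, adjusted p = 0.328 by the edgeR test), and Rnls had 0.35 (SE 0.18). Nnt, the mitochondrial transhydrogenase, had 2 counts in all over the 10 libraries. A deletion in Nnt is known in C57BL/6J, the strain to which the floxed mice were backcrossed.

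The other 5 sirtuins had estimates from -0.08 to 0.09, and none had an unadjusted p under 0.05. Sirt2 was the most abundant at 15.2 CPM per kb in control (log2 fold change 0.01), followed by Sirt6 at 4.54 CPM per kb (0.01), and Sirt4, Sirt5 and Sirt7 had -0.08, 0.09 and 0.06. All 19 genes of ADP-ribose transfer and removal were tested. Parg, which degrades poly(ADP-ribose), had 30.8 ± 1.56 CPM in control against 33.9 ± 1.49 in KO libraries, with no overlap between the groups and a log2 fold change of 0.13 (SE 0.0505, adjusted p = 0.273 by the edgeR test). Parp3, the most abundant per kb (39.2 CPM per kb in control), had -0.11 (SE 0.044, adjusted p = 0.312), and Macrod1 (22.6 CPM per kb) had 0.12. Among the NAD hydrolases, Bst1, the paralog of Cd38, had 34.5 ± 4.14 CPM in control against 32.4 ± 7.62 in KO libraries, a log2 fold change of -0.09 (SE 0.141), and Art3 had 0.07. Sarm1 and Enpp3 had at most 14 and 10 counts in a library and were not tested.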

How the data were processed

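The authors aligned the reads, which were paired-end, to GRCm38.p6 with STAR (mm10 per the labels), ran featureCounts on an Ensembl annotation and deposited the counts unnormalized and unfiltered; 0 columns belonged to other samples.

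Low genes were dropped here with filterByExpr (minimum count 10) in edgeR 4.0.16 under R 4.3.3. Libraries were scaled by TMM, and the quasi-likelihood test, unpaired, compared KO with control over 14270 genes with Benjamini-Hochberg adjustment and a limit of 0.05. Levels per kb used the union of GENCODE M21 exons, matched by identifier without version. Log2 CPM had a prior count of 2, and genes ranked for likeness to Nampt a mean log2 CPM of at least 3. Members and lists were chosen with earlier results of these data known. Other genes named are those past the limit, the 2 smallest p and 2 highest levels per role, paralogs, markers and the 5 most like Nampt by each measure; Nt5e by library, Gnmt, Aox1, Nnt and untested genes were singled out after their values were seen.

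Alternatives were DESeq2 1.42.0 (also with independent filtering, added later), other size factors and filters, limma 3.58.1 voom, a replicate block, and libraries left out. Scripts were tested on simulated data.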

Additional observations from a re-analysis of the deposited data

Results flagged for a closer look

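Among 24 groups of 5 libraries examined for a value far from the rest (the 10 genes, Ahcy and Aox3 in each genotype, where chance alone gives about 1.2), 2 stood out, both in control library 4. Nampt had 859.5 CPM there, with the other controls between 652.2 and 705.9 CPM. Nmnat1 had 28.67 CPM there, with the other controls between 22.71 and 24.15 CPM. Control library 4 was above the other 4 controls for 6 of the 10 genes and below them for 2, Naprt and Nnmt. The same count over all genes is not given here, so this is a description only and not a trait of these genes.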

How the results depend on the processing

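The call of 0 of the 10 genes held under DESeq2, other size factors, other filters, limma voom and the replicate block. It was 0 to 1 with each library left out (1, Nampt, without control 4) and 1 without control 4 and KO 1 together. For 8 genes the direction held under all 19 alternatives; Naprt turned to 0.027 without control 3 (each library left out: -0.11 to 0.027), and Nadsyn1, at 0.01, turned to -0.014 with library totals only, to -0.019 without control 4 and KO 1 together, and ranged from -0.017 to 0.073 with each library left out. Of the 2 other NAD genes, Aox3 was lost without the filter on low counts (1 left, adjusted p = 0.0535) and both with the replicate block (0 left, adjusted p = 0.0618 for Ahcy and 0.132 for Aox3, edgeR); counts were 1 to 3 with each library left out. Over all genes, 309 calls became 484 with DESeq2 (484 also with independent filtering), 498 without control 4 and KO 1 together, 214 with the replicate block and 187 to 442 with each library left out. The cause of these shifts was not tested. Libraries sharing a number correlated at -0.251 to 0.263 in their deviations from group means. Pair 3 (0.263) lay above its other pairings (at most -0.014), and pair 1 (-0.173) below its own (at least 8.95e-05). The labels name no pairing, and these correlations show no steady likeness by number but cannot exclude that same-numbered cultures were prepared together. Among the 10 genes, depth limits Nmrk1 and Naprt most, with counting errors of 8.72% and 7.98%, and that of Aox3 is 11.5%.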
